A study of Mus musculus with 2 samples.

Results

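Mir137, Mir153, Mir488, Mir551b and Mir708 are mouse microRNA (miRNA) genes that are enriched in neurons and whose names each stand for 1 annotated gene, although most of the mature sequence of Mir708 occurs in another annotated gene too. They were picked by name from the 2202 miRNA genes of the deposited count tables, by a rule that uses no measured value but was written with earlier results of these data known, and all 5 were found, with 1 row each. The tables describe 2 small RNA libraries of hippocampus from male B6CASTF1/J mice, the first-generation cross of C57BL/6J with CAST/EiJ, aged 25 days, and the labels name no treatment. With a single tissue, genotype and age, the comparisons are between genes and between the libraries. The labels number the libraries as biological replicates 1 and 2 with separate biosamples, but give them the same donor entry, so the spread between them may be partly technical. The tissue is called a layer of hippocampus in the labels and was sequenced whole, so that fewer cells of a type and less RNA per cell cannot be told apart.

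A miRNA gene is transcribed as part of a longer RNA, from which a hairpin is cut and then trimmed to a duplex of 2 arms, named 5p and 3p. The arm loaded into an Argonaute protein pairs with target messenger RNAs mainly through its seed, bases 2 to 8, and lowers their translation and stability. miR-137 acts on genes of neuronal maturation and synaptic transmission, and the human locus is associated with schizophrenia. miR-153 targets proteins of synaptic vesicle release and alpha-synuclein, and miR-708 was described as a product of the endoplasmic reticulum stress factor CHOP together with its host gene. Hairpins that lie inside an intron are usually made from the transcript of the host gene, which in neurons can be very long.

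The mature arms are shown because the counts were made per gene and do not separate the arms, and because the seed sets which targets a miRNA shares with others. RefSeq gave 10 arms for the 5 genes on GRCm38.p6, 21 to 23 bases long, and the capitals mark the seed. The arms are written 5′ to 3′:
miR-137-5p: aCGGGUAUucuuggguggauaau
miR-137-3p: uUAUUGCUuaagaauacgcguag
miR-153-5p: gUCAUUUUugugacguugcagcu
miR-153-3p: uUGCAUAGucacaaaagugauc
miR-488-5p: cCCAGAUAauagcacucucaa
miR-488-3p: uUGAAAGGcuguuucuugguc
miR-551b-5p: gAAAUCAAgcuugggugagaccu
miR-551b-3p: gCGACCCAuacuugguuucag
miR-708-5p: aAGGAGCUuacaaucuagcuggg
miR-708-3p: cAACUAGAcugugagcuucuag

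No seed was shared among these arms: the 10 seeds were all different. Of the 1738 mature mouse sequences compared, 1 had the seed of a member, miR-28a-5p, which has that of miR-708-5p. The other 9 arms had no such relative among the sequences compared. Mature sequences from 1 chromosome were left out of the comparison, so relatives there were not sought.

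The hairpins of Mir137 and Mir708, the 2 of the 5 genes with the most counts, show where the arms lie, here in capitals. They were read from the GENCODE M21 transcripts:
Mir137: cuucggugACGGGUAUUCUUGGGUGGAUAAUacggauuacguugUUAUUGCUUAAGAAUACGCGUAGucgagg
Mir708: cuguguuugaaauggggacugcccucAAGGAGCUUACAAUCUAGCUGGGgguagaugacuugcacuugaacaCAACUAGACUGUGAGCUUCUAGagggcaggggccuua

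The annotated hairpins were 73 bases long for Mir137, 69 for Mir153, 109 for Mir488, 98 for Mir551b and 109 for Mir708. Their predicted folding energies ran from -30.8 kcal/mol for Mir153 to -45.1 kcal/mol for Mir708. The GC content was between 42.0% for Mir153 and 52.0% for Mir551b, below the median of 52.6% over the 445 detected genes.

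**Figure D1:**
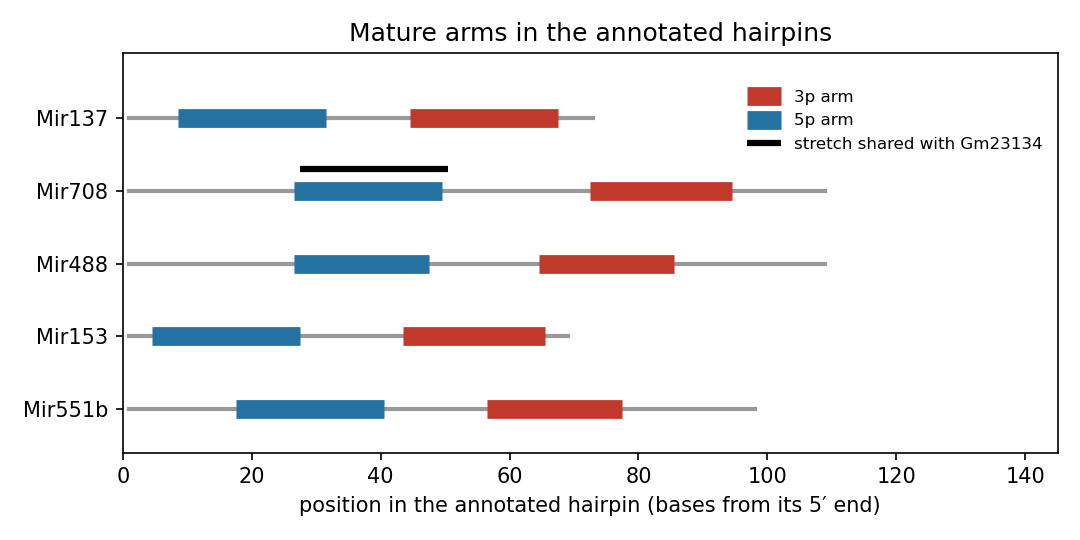
Annotated hairpins of the 5 genes as grey lines, with the position in bases from the 5′ end on the x axis, the 5p arm in blue and the 3p arm in red. The black bar over Mir708 marks the 23 bases it shares with the gene Gm23134, which cover 22 of the 23 bases of the 5p arm.

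In mm10 all 5 genes lie on the plus strand, and 4 of them lie in introns of protein-coding genes. Mir137 (ENSMUSG00000065569.2, chr3:118433857-118433929) is the exception. It lies in an exon of the noncoding gene Gm26871, and in the transcript Gm26871-201 the hairpin starts 60 bases after the transcript start, in exon 1 of 2. Mir708 (ENSMUSG00000076143.1, chr7:96249424-96249532) lies in intron 1 of Tenm4, a teneurin, a family of transmembrane adhesion proteins of neurons. That intron spans 183862 bases, and the hairpin is 78178 bases from the start of the transcript Tenm4-201.

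Mir488 (ENSMUSG00000070103.2, chr1:158505625-158505733) lies in intron 5 of Astn1, which encodes astrotactin, an adhesion protein of neurons migrating along glia, and only 155 bases behind the exon before it. Mir153 (ENSMUSG00000065538.1, chr12:117250817-117250885) lies in intron 19 of Ptprn2, which encodes a membrane protein of dense-core vesicles, at 96.7% of the length of the transcript Ptprn2-201. Mir551b (ENSMUSG00000076120.1, chr3:29416823-29416920) lies in intron 5 of Egfem1, which encodes a protein with EGF-like and EMI domains, and that intron has 225711 bases. The 4 introns thus differ widely in length, since those of Astn1 and Ptprn2 hold 4376 and 4902 bases.

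The 4 coding hosts are long genes. Ptprn2 spans 791130 bases, Tenm4 739848, Egfem1 609187 and Astn1 329509. The median host length for the 734 miRNA genes in introns of coding genes, which have 571 different hosts, was 83593 bases. Only 74 of those 734 genes have a host at least as long as Astn1. The noncoding host Gm26871 spans 99699 bases. Host transcripts were not measured in these small RNA libraries, so no host level stands beside a miRNA level.

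**Figure D2:**
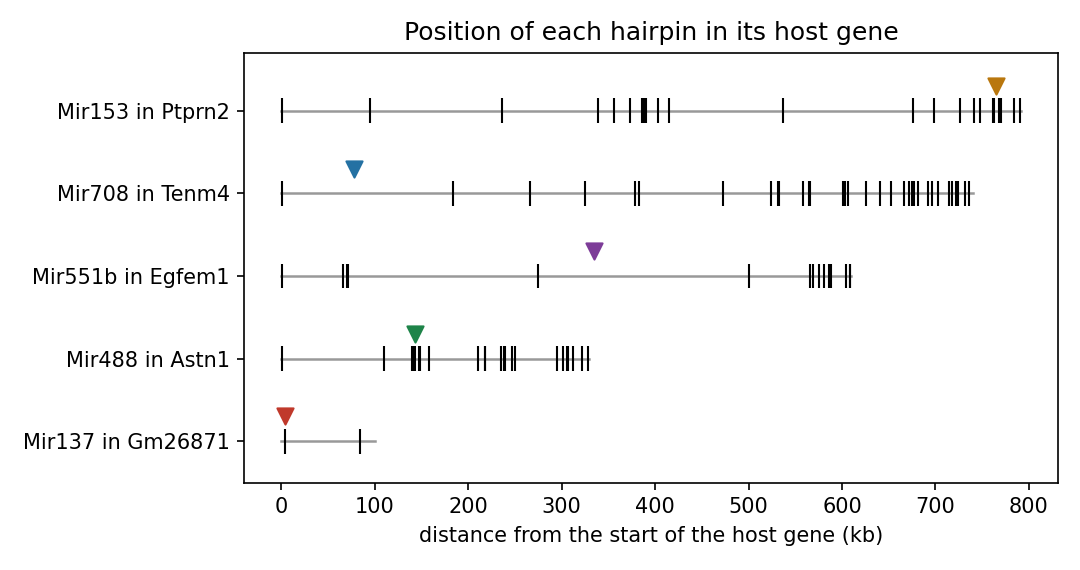
Host genes as grey lines, with the distance from the host start in kb on the x axis, the exons of 1 transcript as black ticks of fixed width and the hairpin as a triangle. Mir137 sits at the first exon of its noncoding host, the shortest of the 5, Mir708 before the second exon of Tenm4 and Mir153 near the end of Ptprn2.

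Other miRNA genes of the same hosts or within 10000 bases gave almost no reads. Gm24155, 791 bases downstream of Mir137 and also in Gm26871, had 3 counts in replicate 1 and 0 in replicate 2. Mir21b, in Egfem1, and Mir6394, in Tenm4, had 0 counts in both libraries. In each host the member was therefore the single miRNA gene with more than 3 counts.

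Levels are in CPM, the sense-strand counts of a gene per 1000000 sense-strand counts of all miRNA genes. These totals were 5183641 in replicate 1 and 5871233 in replicate 2, at which a count of 0 allows up to 0.579 and 0.511 CPM. Reads aligned to several places, 43.6% and 43.2% of all reads, are in no gene count. Intervals are exact Clopper-Pearson intervals at 95% and cover counting error only.

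By counted reads, Mir137 was the most abundant of the 5 genes. It had 18227 counts in replicate 1 and 29868 in replicate 2, or 3516 CPM (95% interval 3465 to 3568) and 5087 CPM (5030 to 5145). The mean was 4302 ± 1111 CPM (SD, n = 2), which ranked 43 among all miRNA genes. It was the only member in the upper 10% of the 445 detected genes, those with at least 10 counts in both libraries.

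Mir708 followed with 6184 and 7106 counts, or 1193 CPM (1163 to 1223) and 1210 CPM (1182 to 1239). Its mean of 1202 ± 12.2 CPM (SD, n = 2) ranked 93. The intervals of the libraries overlap, and the SD was 1.02% of the mean, the smallest of the 5 under this scaling. Mir488 had 1449 and 1993 counts, or 280 CPM (265 to 294) and 339 CPM (325 to 355), and its mean of 309 ± 42.4 CPM ranked 154. Here replicate 2 was the higher library and the intervals do not overlap.

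Mir153 and Mir551b were the scarcest members. Mir153 had 213 and 231 counts, or 41.1 CPM (35.8 to 47.0) and 39.3 CPM (34.4 to 44.8), and a mean of 40.2 ± 1.23 CPM (SD, n = 2) at rank 237. Mir551b had 97 and 245 counts, or 18.7 CPM (15.2 to 22.8) and 41.7 CPM (36.7 to 47.3), and a mean of 30.2 ± 16.3 CPM at rank 249. Its SD of 53.9% of the mean was the widest of the 5, and its library intervals are apart.

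**Figure D3:**
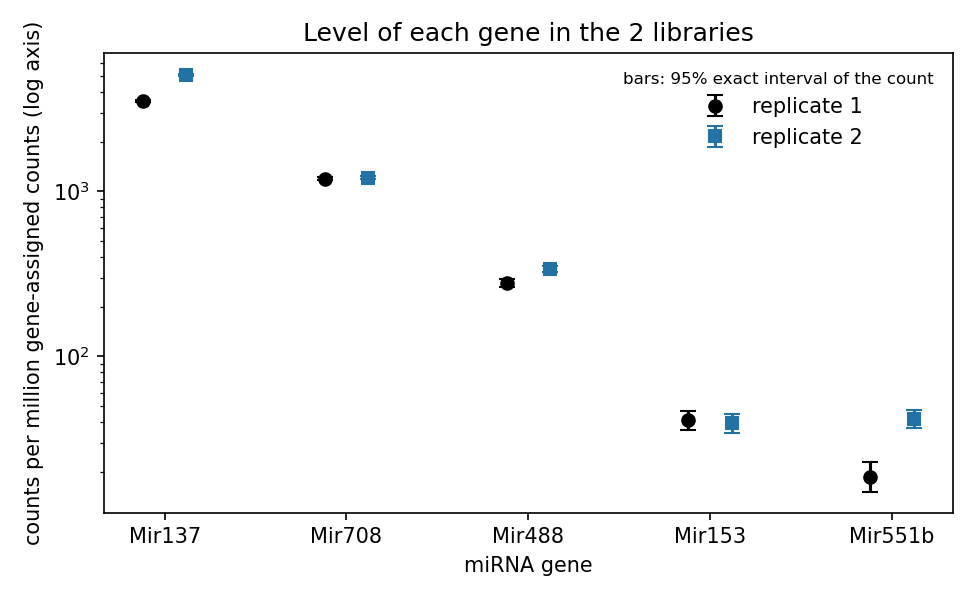
CPM of the 5 genes on a log axis in replicate 1 (black circles) and replicate 2 (blue squares), with 95% exact intervals of the counts as bars. The libraries lie together for Mir708 and Mir153 and apart for Mir137, Mir488 and Mir551b, where replicate 2 is higher.

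All 5 genes were detected, against 20.2% of the 2202 genes, which includes many predicted genes without reads. Of the 5, 3 lay above the median level of 51.2 CPM of the detected genes, and Mir153 and Mir551b lay below it. From Mir137 to Mir551b the level fell 188-fold in replicate 1 and 129-fold in replicate 2. Together the 5 genes took 0.505% of gene-assigned counts in replicate 1 and 0.672% in replicate 2, or 0.588% ± 0.118 (SD, n = 2). Mir137 alone held 69.6% of the summed counts of the 5 in replicate 1 (69.1 to 70.2) and 75.7% in replicate 2 (75.3 to 76.1). Without Mir137 the share of the other 4 was 0.153% and 0.163%.

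The order of the counted levels was the same in both libraries down to Mir488, though that of Mir708 may leave out reads aligned to several places. Mir137 stood 2.95-fold above Mir708 in replicate 1 and 4.20-fold in replicate 2. Mir708 stood 4.27-fold and 3.57-fold above Mir488, and Mir488 6.80-fold and 8.63-fold above Mir153. Mir153 and Mir551b did not keep their order: Mir153 was 2.20-fold higher in replicate 1, while in replicate 2 the ratio was 0.943, with overlapping intervals. The gap between these neighbours, 0.52 ± 0.86 on the log2 scale (SD, n = 2), was smaller than its spread, whereas the gap from Mir488 to Mir153 was 2.94 ± 0.24.

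Per base of the annotated hairpin the order was the same in the means. The mature arms are 21 to 23 bases long in all members, so this scale follows the annotation rather than the length of the RNA read. Mir137 had 58.9 ± 15.2 CPM per base (SD, n = 2), Mir708 11.0 ± 0.112, Mir488 2.84 ± 0.389, Mir153 0.583 ± 0.0179 and Mir551b 0.308 ± 0.166. On this scale Mir153 was above Mir551b in both libraries, by 3.12-fold and 1.34-fold, so dividing by hairpin length turned their order in replicate 2 and in no mean.

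The genes nearest in level were found by the distance of log2(CPM + 1) over the 2 libraries, a likeness of level in 2 libraries and no more. Nearest to Mir137 were Mir219a-2, an oligodendrocyte miRNA gene with 3751 and 4709 CPM (distance 0.15), and Mir29a with 3706 and 4172 CPM (0.30). Nearest to Mir708 were Mir7689 (0.060) and Mir666 (0.066), and to Mir488 Mir1843a (0.074) and Mir3475 (0.11). Those of Mir153 were Mir679 (0.23) and Mir181a-2 (0.28), and those of Mir551b were Mir3547 (0.23) and Mir122 (0.24), the liver miRNA gene, with 20.4 and 36.1 CPM. Mir219a-2, Mir1843a and Mir181a-2 share 22, 23 and 28 bases with other miRNA genes. Their counts may leave out reads aligned to several places, so their nearness in level is uncertain.

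Other neuron-enriched miRNA genes spanned a wider range of counted levels, above Mir137 and below Mir551b. Of 15 such genes, which include the copies of miR-124, miR-128 and miR-138 and the activity-induced Mir132 and Mir212, 13 were detected, and they took 3.70% ± 0.140 of counts (SD, n = 2). Mir132 led them with 17116 ± 3460 CPM, followed by Mir128-1 with 6294 ± 123 CPM and Mir138-1 with 5856 ± 1194 CPM. By mean CPM these 3 were the ones of the list above Mir137, and 6 of the 15 were above Mir708. In replicate 2, however, Mir138-1 was below Mir137, with 5012 against 5087 CPM. The median was 472 CPM over the 15 genes and 309 CPM over the 5 members, beside 51.2 CPM over the detected genes of the whole table. The 3 copies of miR-124, which share 32 bases or more, were near 0, with means of 2.57 CPM for Mir124a-1, 0.959 CPM for Mir124a-3 and 0.0852 CPM for Mir124a-2. A stretch of 20 bases or more was shared with a miRNA gene elsewhere by 11 of the 15 genes and by 1 of the 5, Mir708. Reads aligned to several places would not be counted for such genes, so low counts of the miR-124 copies do not show scarcity. The median of the 15 genes and the lower end of the range are uncertain for the same reason. The median of the 5 is the level of Mir488, whose longest shared stretch is 12 bases. It still rests on a total without reads aligned to several places.

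**Figure D4:**
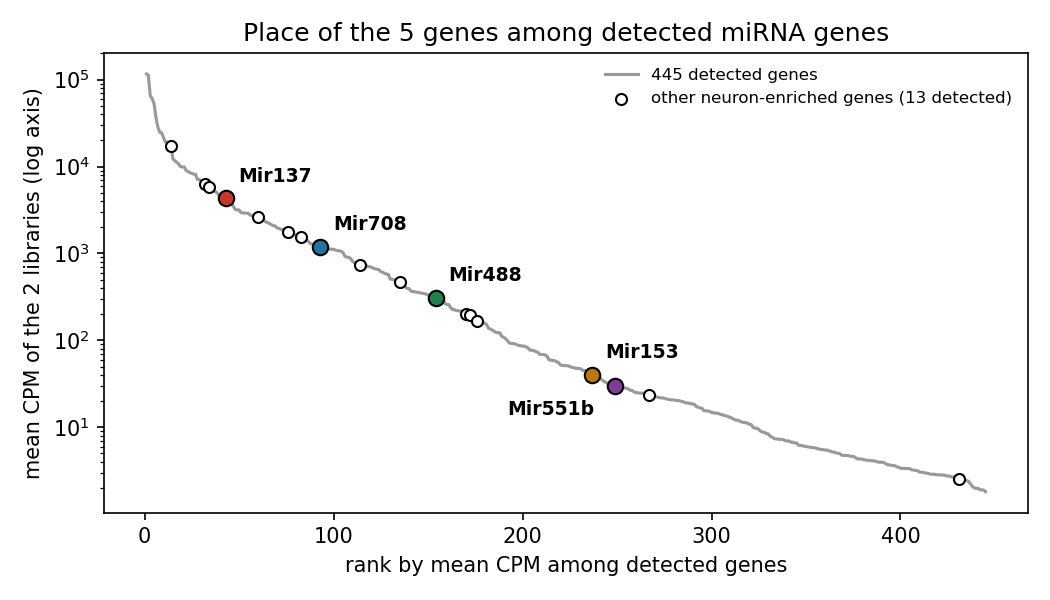
Mean CPM of the 445 detected genes on a log axis against their rank, with the 5 genes as coloured points and the 13 detected genes of the other neuron-enriched list as open circles. The 5 genes run from rank 43 (Mir137) to rank 249 (Mir551b).

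Mir708 was the one member with a copy of its mature sequence elsewhere. A stretch of 23 bases of its hairpin stands also in Gm23134 (ENSMUSG00000077990.1), a miRNA gene in an intron of Blcap (chr2:157562361-157562447, minus strand). The stretch is shown with the bases of miR-708-5p in capitals:
shared: AGGAGCUUACAAUCUAGCUGGGg

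It holds bases 2 to 23 of the 23 bases of miR-708-5p, so that only the first base of the arm lies outside it. Gm23134 itself had 3 counts in each library. Whether reads of miR-708-5p stand among those aligned to several places was not tested, so the level of Mir708 is uncertain. The same goes for its rank, its ratios to the other members and the shares of counts given above. The longest stretch shared with any other miRNA gene was 12 bases for Mir488 and Mir551b and shorter than 12 for Mir137 and Mir153.

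The seed relative of miR-708-5p lay below Mir708 in both libraries. miR-28a-5p comes from Mir28a (ENSMUSG00000065494.1, chr16:24827855-24827940, plus strand), in an intron of Lpp, and is printed with its seed in capitals:
miR-28a-5p: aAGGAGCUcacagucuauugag

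Over 22 bases counted from the 5′ end, 16 are identical, and the differences from miR-708-5p are U9C, A13G, G18U, C19U, U20G and G21A. Mir28a had 3823 and 4619 counts, or 738 and 787 CPM, a mean of 762 ± 34.8 CPM (SD, n = 2). It shares 20 bases with Mir28c, so its level, and the ratio to Mir708, are uncertain in the same way as that of Mir708. Mir708 stood above it 1.62-fold in replicate 1 and 1.54-fold in replicate 2, and per base of hairpin 1.28-fold and 1.21-fold. With a seed of bases 2 to 7 only, miR-153-3p gained 2 relatives among the sequences compared. Mir448, in the serotonin receptor gene Htr2c, had 15.8 and 12.1 CPM, below Mir153 in both libraries, and Mir6335 had 0 counts.

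Each gene's counts in the libraries were set against the totals by an exact binomial test (2-sided), and p-values were adjusted by Benjamini-Hochberg over all 472 genes that averaged 10 counts or more. The test leaves out the spread between samples. An adjusted p under 0.05 was reached by 59.7% of the 472 genes, and the cause of that share was not tested. It was reached by 3 of the 5 members, all higher in replicate 2, a direction found for 39.4% of tested genes, and by 0 of the 5 in the other direction, found for 20.3%. A share of 3 of 5 is close to the background of 59.7%. The median log2 ratio of the 5, replicate 2 over replicate 1, was 0.28, beside 0.16 over the tested genes.

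Mir551b differed most, 2.23-fold higher in replicate 2 (interval 1.76 to 2.85, adjusted p = 1.09e-11 in the exact binomial test). It was the single member both called and past 2-fold on the log2(CPM + 1) scale, as were 12.7% of tested genes. Mir137 was 1.45-fold higher (1.42 to 1.47), with an adjusted p too small for the calculation to hold, and Mir488 1.21-fold (1.13 to 1.30, adjusted p = 4.84e-08 in the exact binomial test). Mir708 had a ratio of 1.01 (0.980 to 1.05, adjusted p = 0.509) and Mir153 a ratio of 0.957 (0.791 to 1.16, adjusted p = 0.762, both in the exact binomial test). These tests compare 2 libraries and not conditions.

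Set against genes of like depth under the scaling by totals, 3 of the 5 differences were ordinary or small. Of the 54 other tested genes within 2-fold of the mean count of Mir488, 37 differed by at least as much (68.5%). The same held for 70 of 79 genes near Mir153 (88.6%) and for 61 of 62 near Mir708 (98.4%). For Mir137 it held for 5 of 42 genes and for Mir551b for 10 of 83. The ratios were not centred on the median of the tested genes, and these counts were not repeated under another scaling. The common biological coefficient of variation over the 472 genes, estimated with edgeR, was 0.320.

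**Figure D5:**
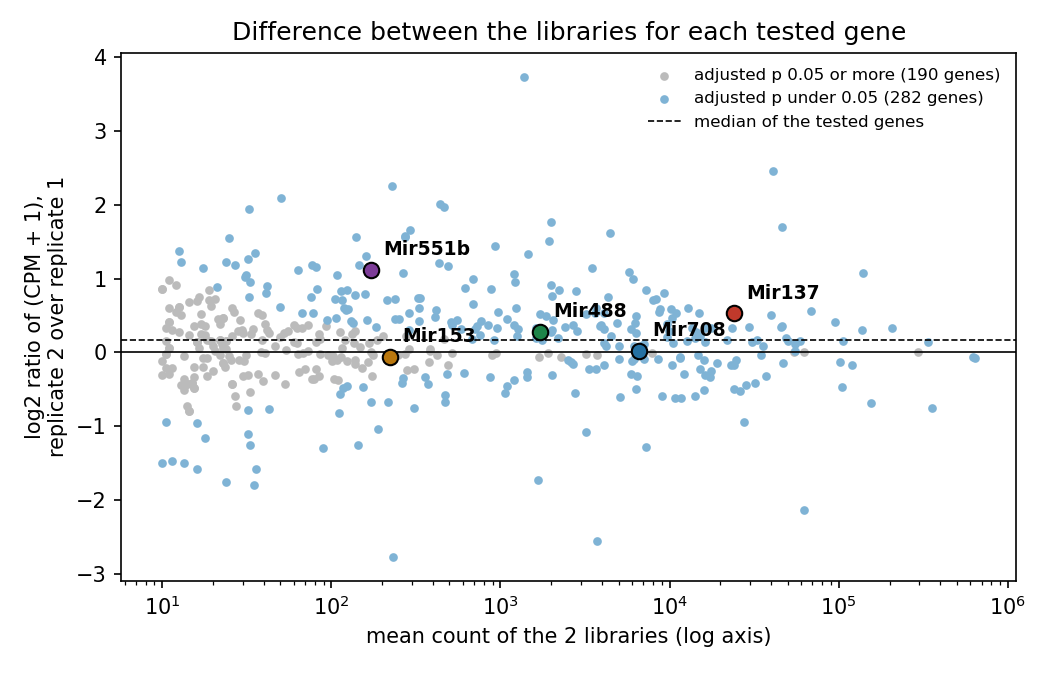
Log2 ratio of CPM + 1, replicate 2 over replicate 1, against the mean count (log axis) for the 472 tested genes, in blue with an adjusted p under 0.05 and in grey otherwise. Mir551b (1.12) and Mir137 (0.53) lie above the dashed median of 0.16, and Mir153 (-0.06) and Mir708 (0.02) lie near 0.

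The calls of Mir488 and Mir708 depended on the scaling. With TMM scaling, which trims extreme genes before the libraries are matched, log2 ratios fell by about 0.17. Mir708 was then lower in replicate 2, with a log2 ratio of -0.15 and an adjusted p of 6.63e-09 in the exact binomial test, and 4 of 5 members were called against 58.9% of tested genes. Among these 4, Mir488 lay at the edge of the threshold (log2 ratio 0.11, adjusted p = 0.0496 in the exact binomial test). With DESeq2 size factors Mir488 was not called (log2 ratio 0.10, adjusted p = 0.0856 in the exact binomial test). Mir708 had -0.16 and was called (adjusted p = 3.73e-10 in the exact binomial test). There 3 of 5 members were called, beside 274 of the 472 tested genes. Mir137 and Mir551b stayed higher in replicate 2 and called under both scalings, with log2 ratios of 0.36 and 0.95 under TMM.

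With totals as the scaling, the other marker lists differed in direction. Calls of these lists under TMM, which lowers the log2 ratios, are not given. Of all 472 tested genes, 39.4% were called higher in replicate 2 and 20.3% higher in replicate 1. Each list is short, and whether its calls depart from these shares was not tested. The summed level of the oligodendrocyte list was 5250 CPM in replicate 1 and 6676 CPM in replicate 2, led by Mir219a-2, Mir338 (1728 ± 326 CPM) and Mir219a-1 (5.64 ± 5.52 CPM), and 3 of its 3 genes were called higher in replicate 2. Mir219a-1 and Mir219a-2 each share 22 bases with other miRNA genes. Reads aligned to several places would not be counted for them, so their levels and the sum are uncertain. The other neuron-enriched list summed to 36021 and 37998 CPM, with 3 of 13 tested genes called higher in replicate 2 and 8 in replicate 1. The vessel list, led by Mir126a, Mir143 and Mir145a, summed to 9313 and 8794 CPM with 1 of 3 called higher and 2 lower. The microglia and leukocyte list, led by Mir150, Mir146 and Mir142, summed to 1742 and 1695 CPM with 1 of 5 called higher and 2 lower. The same limit holds for Mir146, with a shared stretch of 21 bases. The choroid plexus list, led by Mir204, Mir34c and Mir449a, summed to 1351 and 1097 CPM, with 1 of 4 called higher and 2 lower.

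Mir486, Mir451a and Mir144, which mark red blood cells, summed to 41.9 and 56.9 CPM with 2 of 3 called higher. The list of muscle, liver and pancreas, led by Mir375, Mir206 and Mir122, summed to 344 and 369 CPM, with 2 of 3 tested genes called higher and 1 lower, while its other 2 genes, Mir1a-1 and Mir133a-1, had 0 counts in both libraries. These 2 genes share stretches of 28 and 31 bases with other miRNA genes, so reads aligned to several places would not be counted for them. The part of these cell types in the differences of Mir137 and Mir551b was not tested.

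Reads fell on the annotated strand of 4 members without exception. Mir137 had 0 opposite-strand counts in both libraries, which allows a share of up to 0.0165% in replicate 1 and 0.0100% in replicate 2. Mir153, Mir488 and Mir551b also had 0, with limits between 0.151% (Mir488, replicate 2) and 3.09% (Mir551b, replicate 1). The genome annotation holds a gene on the other strand at Mir488 (Gm37679) and at Mir153 (Gm5441). Mir708, with no annotated gene opposite, was the exception, at 13 and 14 counts.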

How the data were processed

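Small RNA was sequenced in 2 hippocampus libraries (1 group). The deposited values are raw counts of reads per miRNA gene, made by the authors on mm10 with GENCODE M21, per the text files deposited beside them. No aligner or counter is named in the labels or file headers, and the labels give a size range under 30 bases. Of the 3 count columns, that on the strand of the gene was used. The 4 rows without a gene stayed out of the totals: in replicates 1 and 2, unmapped reads were 14.1% and 15.5%, multiply aligned reads 43.6% and 43.2%, and reads on no feature 5.04% and 4.59%.

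All 2202 identifiers matched GENCODE M21. RefSeq's table (GRCm38.p6, the same coordinates as mm10) gave mature arms for 5 of 5 members and hairpins for 3, not for Mir551b and Mir708. CAST/EiJ variants in the hairpins were not examined.

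CPM, exact intervals and the binomial test (scipy 1.17.1) were computed from the counts, with a pseudocount of 1 CPM for log2 ratios. With 1 group no quasi-likelihood coefficient exists. edgeR 4.0.16 gave the dispersion and TMM factors, DESeq2 1.42.0 size factors (R 4.3.3) and ViennaRNA 2.7.2 folding energies. The test was checked on simulated counts that vary by counting error only, which is the setting it assumes. That check does not cover the spread between these libraries.

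The members and lists were chosen with earlier results of these data known. Named are the members, the 2 genes nearest in level to each, seed relatives, miRNA genes in the same host or within 10000 bases, and the 3 highest of each list. Mir124a copies, Gm23134 and genes with opposite-strand counts were named after their values were seen.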

Additional observations from a re-analysis of the deposited data

Results flagged for a closer look

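Mir708 had reads in a column outside the levels above, on the strand opposite to the gene, more than the 3 counts that a count of 0 allows. There were 13 such counts in replicate 1, or 0.210% of its reads on both strands (95% exact interval 0.112 to 0.358), and 14 in replicate 2, or 0.197% (0.108 to 0.330). Of 147 genes that overlap no other miRNA gene and have at least 1000 counts on their own strand in both libraries, 139 had none, and 4 had opposite-strand counts in both libraries. Mir708 ranked 1 by that share in each library, ahead of Mir130a (0.0601% and 0.0457%), Mir324 and Mirlet7b. The deposited counts do not show where in the hairpin these reads lie.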

How the results depend on the processing

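No paired analysis was possible because the libraries form 1 group. All 5 members were detected with a minimum of 1 count, and 4 with 100 counts in both libraries. Adding multiply aligned reads to the total gave a median member of 142 CPM and a share of 0.271%, and leaving the 10 most abundant genes out of it gave 680 CPM and 1.29%, by construction of the total. With 1 library left out the median ran from 280 to 339 CPM and the share from 0.505% to 0.672%. The log2 ratio of Mir708 turned negative under TMM (-0.15), DESeq2 size factors (-0.16) and the total without the 10 most abundant genes (-0.050, adjusted p = 0.0749 in the exact binomial test). With TMM scaling, 278 genes were called, 141 of them higher in replicate 2, and with DESeq2 size factors 274 and 132, against 282 and 186. With a seed of bases 2 to 7 the members had 3 relatives among the sequences compared. Among genes in introns of coding hosts, the share detected was 26.0% of all, 36.1% of those without a shared stretch of 20 bases and 36.3% of those with a Mir symbol. At 97 to 245 counts, Mir551b and Mir153 are the members whose levels depth limits most.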

Other observations

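Where the 4 intronic members stand among other intronic miRNA genes was described without a test. Of 734 miRNA genes in introns of protein-coding hosts, 191 (26.0%) were detected, with a median of 25.6 CPM and quartiles of 5.43 and 315 CPM. All 4 members lay above that median, Mir708 at rank 30, Mir488 at rank 49, Mir153 at rank 86 and Mir551b at rank 89 of the 191. Detected genes in noncoding hosts, the class of Mir137, had a higher median of 319 CPM, with quartiles of 37.6 and 1889 CPM, and Mir137 was above the upper quartile.

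Long hosts, as those of these 4 genes are, went with a detected share near that of shorter hosts. Of the 74 intronic genes whose coding host is at least as long as Astn1, 22 (29.7%) were detected, the 4 members among them, and without the members 18 of 70 (25.7%). Of the 660 with a shorter host, 169 (25.6%) were detected. The length limit was set by the members after their hosts were seen, and the difference was not tested. These shares count genes, so a host with several miRNA genes enters once for each.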
